A study of Mus musculus with 4 samples.

Results

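Genes of the membrane fusion machinery and of the synaptic vesicle were compared between Atm-/- and Atm+/+ mouse brain. They were the synaptotagmins, the syntaxins with their binding proteins, the VAMPs, the SNAP25 family, the complexins, SV2, the synapsins and synaptophysin. A probe was taken when its symbol in the platform annotation began with Syt, Stx, Stxbp, Vamp, Snap or Cplx followed by a digit, or was Sv2a, Sv2b, Sv2c, Syn1, Syn2, Syn3 or Syp. The rule used no measured value and gave 117 of 45281 probes, standing for 60 of 19057 annotated genes.

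Synaptic vesicles fuse when a VAMP on the vesicle winds together with a syntaxin and a SNAP25-type protein on the plasma membrane, the 3 being known as SNAREs. Stxbp proteins of the Munc18 type hold and guide the syntaxin, complexins bind the assembled bundle, and synaptotagmins sense the calcium that triggers fusion. SV2, the synapsins and synaptophysin are proteins of the vesicle itself, while other syntaxins and VAMPs serve endosomes, the Golgi and the ER in every cell. In rodents, Syt1 and Vamp2 are the forms of most forebrain synapses, and Syt2 and Vamp1 are prominent in brainstem and spinal cord.

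The samples were total brain RNA from mice of mixed 129J x C57BL/6 background, 2 Atm+/+ and 2 Atm-/-, each read on 1 Illumina bead array. Atm encodes the DNA damage kinase that is lost in ataxia-telangiectasia. The labels give no treatment, Atm allele, age, sex or dissected brain part. Nor is it stated that the arrays of a genotype stand for different mice, so p-values here reflect the spread among these samples only, and that spread may be technical.

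Signals are the authors' processed values on the log2 scale. A value up to 5.64 is called background, and changes are mean log2 signal in Atm-/- minus that in Atm+/+, with the moderated standard error (SE) of limma. The threshold was a Benjamini-Hochberg adjusted p under 0.05 over the 22383 probes that were above background on at least 2 arrays. "Rose" and "fell" are kept for probes past it.

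Each array had 21290 to 21335 probes above background, and with 2 arrays a genotype the precision is limited. The Atm+/+ arrays differed from each other over 2-fold at 11.3% of tested probes, and the Atm-/- arrays at 0.737%. Atm itself had 4 probes, which did not read alike. ILMN_1258206 fell to background on both Atm-/- arrays, at least 4.46-fold lower, whichever array was left out (adjusted p of at most 0.0287). ILMN_2783896 fell at least 1.77-fold and missed the threshold without Atm-/- replicate 1 (0.219) or replicate 2 (0.200). The brightest, ILMN_2492491, read 9.72 and 9.32 in Atm+/+ and 9.66 and 10.61 in Atm-/-, overlapping groups with a difference of 0.61 ± 0.37 (adjusted p = 0.308), and the last was too dim to test. With the allele not given, which probes lie in the deleted part is unknown.

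Over all 12229 tested genes, each by its brightest tested probe, 7.50% rose and 6.89% fell. Among markers of cell types and regions, 8 of 10 genes shared by neurons were above background, of which 0 rose and 0 fell, with summed linear signals of 56366 to 57295 in Atm+/+ and 79954 to 81525 in Atm-/-. Nefl and Tubb3 were not above background on at least 2 arrays. Region markers moved: 7 of 8 tested cortical and hippocampal genes rose, with sums of 8677 to 14150 in Atm+/+ and 45358 to 47657 in Atm-/-. Tbr1 (5.09 and 4.97 in Atm+/+) and Emx1 (5.04 and 5.17) rose from background. Emx2 and Neurod6 were too dim to test. Of striatal genes 6 of 8 rose, with sums of 3943 to 6216 and 22541 to 22855. Drd1 (5.26 and 5.39 in Atm+/+) and Pde10a (5.34 and 5.27) rose from background. All 7 tested cerebellar genes (of 12) fell, with sums of 37968 to 50811 in Atm+/+ and 2029 to 2534 in Atm-/-, and Pcp2, Gabra6 and Zic2 fell to background. Calb1, Car8, Cbln3, Pax6 and Slc1a6 were too dim to test. Of 10 tested markers of brainstem, thalamus and spinal cord 9 fell, with sums of 18565 to 21812 and 3460 to 3858. Hoxa5, Hoxb5 and Slc6a2 fell to background, and Lef1 and Slc6a5 were too dim to test. Of astrocyte genes 4 of 8 fell, with sums of 91401 to 101155 and 52127 to 53163, and of choroid plexus and ependymal genes 5 of 7 fell, with sums of 60486 to 67945 and 26451 to 33882. Of 9 inhibitory neuron genes 5 rose and 1 fell, with sums of 73907 to 78054 and 39146 to 42135. Pvalb, the 1 that fell, made up 45323 to 46546 and 4481 to 4487 of these. The other 8 genes summed to 28584 to 31508 and 34659 to 37654. Among them Dlx1 (4.81 and 4.86 in Atm+/+) and Dlx2 (5.32 and 4.67) rose from background. Of 8 endothelial genes 3 rose, with sums of 3564 to 4499 and 7159 to 7817. Of 7 oligodendrocyte genes 1 fell, with sums of 133868 to 144846 and 91352 to 101805, and of 7 microglial genes 0 rose and 0 fell. The part of these differences in the results below was not tested, and fewer cells of a type cannot be told apart from less RNA per cell. The labels do not give the dissected part. A difference between genotypes in the brain parts sampled therefore cannot be told apart from an effect of Atm, here or in the results below. Without Atm-/- replicate 1, 4 cortical, 3 striatal and 3 inhibitory neuron genes rose, and 6 cerebellar, 6 brainstem, 1 astrocyte and 1 choroid plexus gene fell, with 0 calls left in endothelium and oligodendrocytes. When Atm-/- replicate 2 was left out, the counts were the same except for 7 cerebellar, 8 brainstem and 2 astrocyte genes. Pvalb fell each time. Without Atm+/+ replicate 1, 2 of the shared neuron genes rose and 2 fell, and without replicate 2, 1 rose. With either Atm+/+ array left out, 3 microglial and 5 endothelial genes rose, and 2 (replicate 1) or 3 (replicate 2) oligodendrocyte genes fell.

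In Atm-/- brain, 11 probes of the fusion and vesicle genes rose and 5 fell. Calls of both directions stood side by side among the calcium-binding synaptotagmins and among the SV2 and synapsin genes, while the syntaxins and their binding proteins held rises only and the VAMPs falls only. Stx1a, Stx2, Stx6, Stxbp2, Stxbp5, Syn1, Syt1, Syt5, Syt7 and Syt16 rose, while Sv2c, Syt9, Vamp1 and Vamp8 fell. Stx1a changed 30.5-fold, and the others between 2.02-fold and 4.53-fold where the probe was above background on at least 1 array of each genotype. The 16 probes were 20.8% of the 77 that could be tested, against 13.0% of all tested probes. For rises the shares were 14.3% of these genes' probes and 6.98% of all, and for falls 6.49% and 6.06%, so the share that fell was near the background. The groups did not overlap at 55 of the 77 probes (71.4%), against 59.8% of all tested probes. Atm-/- was higher at 33 (42.9%, against 29.4% of all) and lower at 22 (28.6%, against 30.3% of all). Taking each gene by its tested probe of highest mean signal, the median change was 0.19 over 45 genes and -0.01 over all 12229 tested genes. The difference was positive in 28 of these 45 genes and negative in 17. Over the 4 pairs of 1 Atm-/- and 1 Atm+/+ array, their median change ranged from 0.07 to 0.43 (SD 0.17). Whether it exceeds the median of all genes was not tested.

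**Figure D1:**
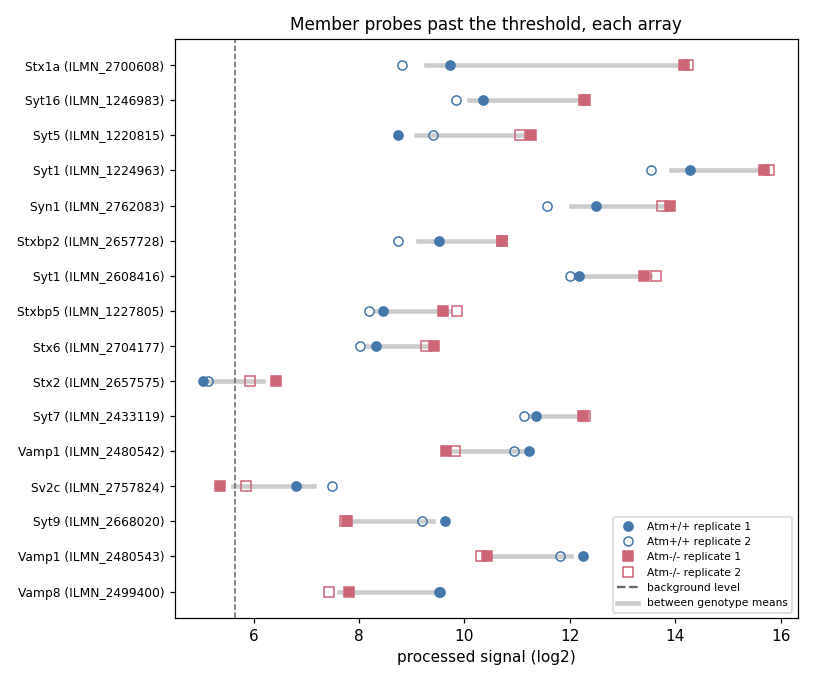
Processed log2 signal (x axis) of the 16 probes past the threshold, 1 row a probe, with circles for the Atm+/+ arrays, squares for the Atm-/- arrays (filled for replicate 1, open for replicate 2), a grey bar between the genotype means and a dashed line at the background level of 5.64. Stx1a spans the widest gap, from 9.72 and 8.82 to 14.16 and 14.23, and the 5 lowest rows are the probes that fell.

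**Figure D2:**
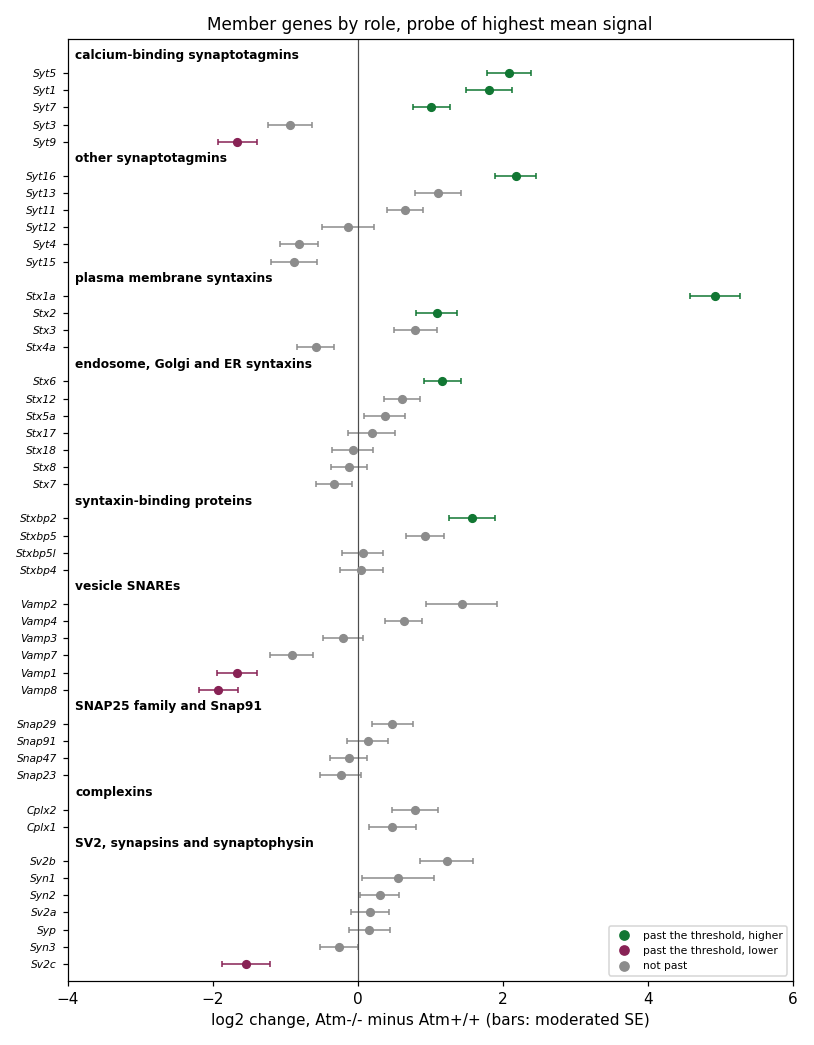
Log2 change (x axis, Atm-/- minus Atm+/+, bars are the moderated SE) of the 45 genes with a tested probe, each by its probe of highest mean signal and grouped by role. Synaptotagmins run from -1.66 for Syt9 to 2.18 for Syt16. Stxbp5 and Syn1 are grey because the probe that passed was their dimmer one.

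The number of calls rested on single arrays, and so did the number over all tested probes, given with the processing further below. Passing only with an array left out is therefore not particular to these genes and is not counted as a call. Without Atm-/- replicate 1, 13 of the 16 calls were lost and Stx1a, Syt16 and Vamp8 stayed past the threshold. Without Atm-/- replicate 2, 13 were lost as well and Stx1a, Syt16 and Syt5 stayed. Leaving out an Atm+/+ array had the opposite effect: 29 probes passed without Atm+/+ replicate 1 and 35 without Atm+/+ replicate 2, with all 16 calls among them each time. The Atm+/+ arrays differed over 2-fold at 3 of the 77 probes and the Atm-/- arrays at 0 of them. A probe passing the brightness filter through the genotype where it is high had to differ. Of the 77 probes, 3 lay at background throughout Atm+/+ and 2 throughout Atm-/-. Of these only Stx2 passed, 1 probe that rose from background, against 1.08% of all tested probes, and 0 fell to background on both Atm-/- arrays, against 0.983% of all.

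**Figure D3:**
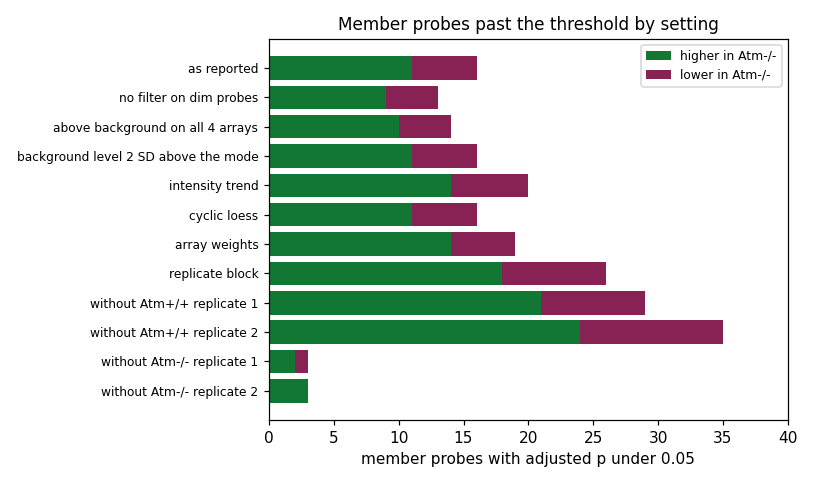
Number of probes of these genes past the threshold (x axis, stacked bars for higher and lower in Atm-/-) as reported and under each other setting. The count is 16 as reported, 3 without either Atm-/- array, and 29 and 35 without the Atm+/+ arrays.

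Of 9 tested probes of the synaptotagmins that bind calcium, 4 rose, from Syt1, Syt5 and Syt7, and 1 fell, from Syt9. Over all tested probes 6.98% rose and 6.06% fell. Syt1, the sensor of fast synchronous release, read 14.29 and 13.54 on the Atm+/+ arrays and 15.68 and 15.78 on the Atm-/- arrays at its brightest probe, ILMN_1224963. Both Atm-/- arrays lay above both Atm+/+ arrays, a rise of 1.82 ± 0.32 (SE, n = 2 per genotype, limma adjusted p = 0.0124), or 3.52-fold. A further Syt1 probe, ILMN_2608416, rose by 1.43 ± 0.26 (adjusted p = 0.0140). At the dim ILMN_1226085, Atm+/+ replicate 1 read 5.05, at background, and replicate 2 read 6.74, against 7.53 and 7.91 in Atm-/-. With the Atm+/+ arrays that far apart the difference of 1.83 ± 0.52 did not pass (adjusted p = 0.0612). It passed without Atm+/+ replicate 1 (0.0118) and without replicate 2 (4.13e-05).

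Syt5, a synaptotagmin of vesicles and dense-core granules, read 8.75 and 9.40 in Atm+/+ and 11.27 and 11.05 in Atm-/-. The groups did not overlap and the probe rose 4.24-fold, by 2.09 ± 0.30 (adjusted p = 0.00664). Syt7, a slower sensor of high calcium affinity, read 11.36 and 11.14 against 12.25 and 12.28 at ILMN_2433119. The rise there was 2.02-fold, or 1.02 ± 0.25 (adjusted p = 0.0414). Its other tested probes, both with means near background, differed by 0.51 ± 0.25 and -0.41 ± 0.33 and did not pass, though the latter did without Atm+/+ replicate 2 (0.0187). A last pair of Syt7 probes was too dim to test.

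Syt9, another fast calcium sensor, moved the other way. It read 9.63 and 9.19 on the Atm+/+ arrays and 7.78 and 7.73 on the Atm-/- arrays. The genotypes were clearly apart, and Syt9 fell by 1.66 ± 0.27 (adjusted p = 0.0102), or 3.16-fold. Syt3 read 6.57 and 7.24 against 5.94 and 5.99, a difference of -0.94 ± 0.30 (adjusted p = 0.0872) that passed without Atm+/+ replicate 1 (0.00183). Syt2, the paralog closest to Syt1 in function, stayed between 5.11 and 5.56 on the 4 arrays, at background, so the pair Syt1 and Syt2 could not be compared. Without Atm-/- replicate 1 all 5 calls of the calcium-binding group were lost, at adjusted p from 0.0613 to 0.367. Without replicate 2, Syt5 stayed at 0.0387 and the other 4 were lost, at up to 0.384. The region that begins each gene is shown for Syt16 and Syt9, the synaptotagmins with the highest and lowest change, with 250 bases before the annotated start and 50 after it (RefSeq, GRCm38.p6). Capitals mark matches to the motifs described further below, and a sequence without capitals held none.
Syt16 promoter, chr12:73997527-73997826, plus strand: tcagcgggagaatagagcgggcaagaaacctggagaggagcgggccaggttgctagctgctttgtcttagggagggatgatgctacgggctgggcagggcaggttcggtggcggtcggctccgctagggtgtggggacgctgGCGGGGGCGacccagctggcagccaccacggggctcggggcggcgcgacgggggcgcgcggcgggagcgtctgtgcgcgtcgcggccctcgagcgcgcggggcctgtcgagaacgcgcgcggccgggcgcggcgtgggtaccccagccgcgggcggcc
Syt9 promoter, chr7:107370540-107370839, plus strand: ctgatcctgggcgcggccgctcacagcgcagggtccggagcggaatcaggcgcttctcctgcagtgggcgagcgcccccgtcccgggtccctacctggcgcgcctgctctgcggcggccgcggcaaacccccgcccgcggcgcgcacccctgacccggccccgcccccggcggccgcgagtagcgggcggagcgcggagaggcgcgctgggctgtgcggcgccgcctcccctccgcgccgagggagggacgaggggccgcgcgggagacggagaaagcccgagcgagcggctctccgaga

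The other synaptotagmins bind calcium weakly or not at all, or are little studied. Of their 8 tested probes 1 rose, that of Syt16, and 0 fell, against 6.98% and 6.06% of all tested probes. Syt16, a divergent member without a transmembrane segment, read 10.35 and 9.84 on the Atm+/+ arrays and 12.26 and 12.28 on the Atm-/- arrays. The Atm-/- arrays were nearly equal and well above the others, a rise of 2.18 ± 0.28 (adjusted p = 0.00415), or 4.53-fold. The call held whichever array was left out, at adjusted p of at most 0.0365. Syt13 read 8.66 and 8.06 against 9.23 and 9.70, a difference of 1.11 ± 0.32 (adjusted p = 0.0634) that passed without Atm+/+ replicate 1 (0.00231) or replicate 2 (0.0374). Syt4, a synaptotagmin of dense-core vesicles, leaned down. Its values were 13.70 and 13.97 in Atm+/+ and 12.90 and 13.14 in Atm-/-. This difference of -0.81 ± 0.26 missed the threshold (adjusted p = 0.0868), which it passed without Atm+/+ replicate 1 (0.0107) or replicate 2 (0.0497). Syt11, Syt12 and Syt15 differed by 0.66, -0.14 and -0.88 at their brightest probes and did not pass. Without Atm+/+ replicate 2, Syt11 (0.0411) and Syt15 (0.00325) did.

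Stx1a, the syntaxin of the neuronal plasma membrane, had the largest change of any of these genes. It read 9.72 and 8.82 on the Atm+/+ arrays and 14.16 and 14.23 on the Atm-/- arrays. The Atm-/- arrays agree within 0.1 on this scale, and both lie over 4 above the higher Atm+/+ array. Stx1a rose by 4.93 ± 0.34 (adjusted p = 0.000533), and with any array left out the change lay between 4.48 and 5.38 and the adjusted p was at most 0.000533. This is its only probe, so no other measurement of the gene stands beside it.
Stx1a promoter, chr5:135023232-135023531, plus strand: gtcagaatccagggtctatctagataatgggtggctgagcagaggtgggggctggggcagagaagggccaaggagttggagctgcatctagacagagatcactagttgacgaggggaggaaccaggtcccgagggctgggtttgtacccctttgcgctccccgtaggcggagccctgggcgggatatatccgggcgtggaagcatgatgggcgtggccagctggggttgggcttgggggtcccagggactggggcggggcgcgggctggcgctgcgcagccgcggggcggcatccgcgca

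The other plasma membrane syntaxins changed less. Of the group's 7 tested probes, 2 rose, from Stx1a and Stx2, and 0 fell, against 6.98% and 6.06% of all tested probes. Stx2 read 5.05 and 5.14 in Atm+/+, at background, and 6.42 and 5.94 in Atm-/-. Its rise was at least 1.45-fold (fitted change 1.09 ± 0.28, adjusted p = 0.0453), and was lost without Atm-/- replicate 1 (0.487) or replicate 2 (0.203). Stx3, a syntaxin of epithelial cells, ribbon synapses and dendrites, had probes that pointed apart. ILMN_1254237 read 8.23 and 7.62 against 8.69 and 8.75, a difference of 0.80 ± 0.29, and ILMN_3107114 differed by 0.51 ± 0.26. ILMN_3162879, which the annotation assigns to a further Stx3 transcript, read 6.52 and 6.56 against 5.89 and 5.98, a difference of -0.61 ± 0.25. The groups did not overlap at any of these probes, and none passed (adjusted p of 0.121, 0.233 and 0.151), though ILMN_1254237 did without Atm+/+ replicate 1 (0.00424). Stx4a, the broadly expressed Stx4, read 10.33 and 10.11 against 9.69 and 9.59, a difference of -0.58 ± 0.25 (adjusted p = 0.179) that passed without Atm+/+ replicate 2 (0.0424).

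Among syntaxins of endosomes, the Golgi and the ER, 1 of 13 tested probes rose, near the 6.98% of all probes, and 0 fell. It belonged to Stx6. With either Atm+/+ array left out, 3 of the 13 rose. Stx6, of the trans-Golgi network and endosomes, read 8.32 and 8.03 in Atm+/+ and 9.42 and 9.26 in Atm-/- at ILMN_2704177, with no overlap. It rose 2.25-fold, by 1.17 ± 0.26 (adjusted p = 0.0292), and lost the call without Atm-/- replicate 1 (0.334) or replicate 2 (0.246). Its dimmer probe differed by 0.90 ± 0.28 (adjusted p = 0.0786) and passed without either Atm+/+ array (0.0470 and 0.00610). The other brightest probes lay between -0.33 for Stx7 and 0.61 for Stx12, a pair of endosomal syntaxins whose groups did not overlap either. Stx8 had 4 tested probes, with differences of -0.62, -0.27, -0.05 and -0.12. For Stx5a and Stx17 1 probe each passed without a single Atm+/+ array (0.0460 without replicate 1 and 0.0407 without replicate 2).

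Of 8 tested probes of the syntaxin-binding proteins, 2 rose, from Stxbp2 and Stxbp5, and 0 fell, against 6.98% and 6.06% of all tested probes. Stxbp2, the Munc18 form known from epithelial and blood cells, read 9.52 and 8.74 on the Atm+/+ arrays and 10.71 on both Atm-/- arrays. Both Atm-/- values were above the others, a rise of 1.58 ± 0.32 (adjusted p = 0.0215), or 2.99-fold. Stxbp5, or tomosyn, which binds syntaxin in place of a VAMP and restrains release, read 8.47 and 8.20 against 9.60 and 9.87 at ILMN_1227805. It rose there by 1.40 ± 0.27 (adjusted p = 0.0166). At its brighter probe, ILMN_2437792, it read 9.32 and 9.52 against 10.21 and 10.49, and the difference of 0.93 ± 0.26 just missed (adjusted p = 0.0611). That probe passed without Atm+/+ replicate 1 (0.0218) or replicate 2 (0.00924). Both called probes lost the call without Atm-/- replicate 1, at 0.136 and 0.156, and without replicate 2, at 0.153 and 0.236. The related Stxbp5l differed by 0.07 ± 0.28 and Stxbp4 by 0.05 ± 0.30 at their brightest probes. Their other tested probes differed by 0.45 for Stxbp5l and by -0.25 and -0.19 for Stxbp4, and did not pass.

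Of 11 tested probes of the vesicle SNAREs 3 fell, from 2 genes, and 0 rose, against 6.06% and 6.98% of all tested probes. Vamp1 read 12.26 and 11.81 on the Atm+/+ arrays and 10.43 and 10.31 on the Atm-/- arrays at ILMN_2480543. Both Atm-/- arrays were lower, and Vamp1 fell by 1.66 ± 0.28 (adjusted p = 0.0106), or 3.16-fold. ILMN_2480542, which the annotation ties to another Vamp1 transcript, fell by 1.35 ± 0.26 (adjusted p = 0.0178), from 11.22 and 10.95 to 9.66 and 9.82. A dim Vamp1 probe with values up to 6.19 differed by 0.32 ± 0.27 and did not pass.

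Vamp2, the main vesicle SNARE of forebrain synapses, leaned the other way from Vamp1. It read 13.23 and 11.64 in Atm+/+ and 13.82 and 13.92 in Atm-/-. The Atm+/+ arrays were 1.59 apart, and the difference of 1.43 ± 0.49 did not pass (adjusted p = 0.0975). Without Atm+/+ replicate 1 it was 2.23 and passed (6.64e-05), and without replicate 2 it was 0.64 and missed (0.0556). Whether the changes of Vamp1 and Vamp2 differ from each other was not tested.

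Vamp8, or endobrevin, a SNARE of endosomes and secretory granules in many cell types, read 9.54 and 9.53 against 7.80 and 7.43. At ILMN_2499400 it fell by 1.92 ± 0.27 (adjusted p = 0.00543), or 3.79-fold. Its dimmer probe read 7.15 and 6.32 against 6.06 and 5.98, a difference of -0.72 ± 0.33 (adjusted p = 0.196) that passed without Atm+/+ replicate 2 (0.00439). Without Atm-/- replicate 1 Vamp8 stayed past the threshold (0.0354) and both Vamp1 probes were lost, at 0.0957 and 0.236. Without replicate 2 all 3 calls were lost, at 0.0856 to 0.172. Vamp7, a SNARE of late endosomes and neurite growth, read 10.97 and 10.82 against 9.69 and 10.28, a difference of -0.91 ± 0.29 (adjusted p = 0.0849) that passed without either Atm+/+ array (0.0373 and 0.0214). The broadly expressed Vamp3 differed by -0.20 ± 0.28. Vamp4 differed by 0.63 ± 0.26 at its brighter probe (adjusted p = 0.151), or 0.49 and 0.77 without the Atm+/+ replicates 1 and 2. At its other tested probe, ILMN_2460555, the difference was 0.07 ± 0.25 (adjusted p = 0.89) and the groups overlapped. The start region of Vamp1 is shown as that of the vesicle SNARE that fell at a pair of probes.
Vamp1 promoter, chr6:125215331-125215630, plus strand: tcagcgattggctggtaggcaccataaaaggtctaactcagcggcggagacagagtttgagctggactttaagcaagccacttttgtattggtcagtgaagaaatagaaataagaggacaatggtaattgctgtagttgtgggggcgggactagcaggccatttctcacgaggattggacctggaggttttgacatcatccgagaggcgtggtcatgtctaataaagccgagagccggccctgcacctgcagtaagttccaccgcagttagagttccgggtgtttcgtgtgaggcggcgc

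**Figure D4:**
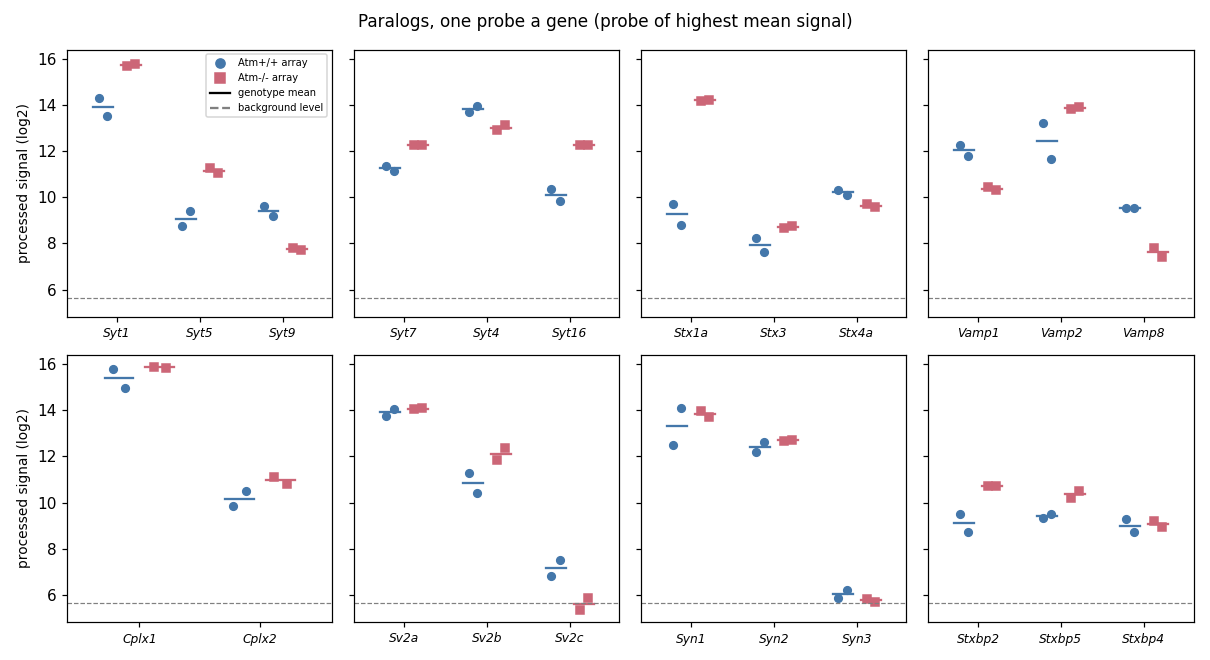
Processed log2 signal (y axis) of paralogs on each array, circles for Atm+/+, squares for Atm-/-, short lines for genotype means and a dashed line at background, each gene by its probe of highest mean signal. Signals of different probes are not comparable in level, so only the step between genotypes within a gene can be read. Syt9, Vamp1, Vamp8 and Sv2c step down where Syt1, Syt5 and Stx1a step up.

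Of 6 tested probes of the Snap genes, 4 in the SNAP25 family proper and 2 of Snap91, 0 passed. Over all tested probes 13.0% passed, and 6 probes are too few to set 0 apart from that share. Snap29, a broadly expressed member, read 8.79 and 9.28 against 9.42 and 9.60. The difference of 0.48 ± 0.28 (adjusted p = 0.303) passed without Atm+/+ replicate 2 (0.0375). Snap25 itself, the plasma membrane SNARE of neurons, could not be measured: both its probes read 4.79 to 5.23 on all arrays, at background. Snap25 is known as an abundant transcript of neurons, and these probes give no level for it. Snap23, its form in non-neuronal cells, read 8.67 and 9.15 against 8.54 and 8.81, overlapping groups. The pair Snap25 and Snap23 therefore could not be compared. Snap91, an adaptor of clathrin-coated vesicles that shares only its name with the SNAREs, differed by 0.14 ± 0.28 at its brighter probe. Its other tested probe differed by -0.14 ± 0.32, and the groups overlapped at both. Snap47 differed by -0.13 ± 0.26.

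The 2 tested complexin probes did not pass, where 13.0% of all tested probes did. Cplx1 read 15.78 and 14.97 in Atm+/+ and 15.88 and 15.83 in Atm-/-, near the highest value on any array. Its difference was 0.48 ± 0.33 (adjusted p = 0.370), or 0.88 without Atm+/+ replicate 1, where it passed (0.0129). Cplx2 read 9.83 and 10.51 against 11.12 and 10.81, with no overlap. That difference of 0.79 ± 0.32 missed the threshold (adjusted p = 0.144) and passed without Atm+/+ replicate 2 (0.00586). Cplx3 and Cplx4, the complexins of retinal ribbon synapses, stayed at background, at 5.17 to 5.62.

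Of 13 tested probes of the SV2, synapsin and synaptophysin genes, 1 rose, from Syn1, and 1 fell, from Sv2c. These are near the 6.98% and 6.06% of all tested probes. The probes of Syn1, a synapsin that tethers vesicles to actin, did not agree. ILMN_2762083 read 12.50 and 11.56 on the Atm+/+ arrays and 13.89 and 13.75 on the Atm-/- arrays, and rose 3.46-fold, by 1.79 ± 0.35 (adjusted p = 0.0192). ILMN_1235133 read 12.49 and 14.10 against 13.99 and 13.71, where Atm+/+ replicate 2 was the highest of the 4. Its difference of 0.55 ± 0.49 did not pass (adjusted p = 0.499) and turned to -0.25 without Atm+/+ replicate 1, whereas without replicate 2 it was 1.36 and passed (0.00212). Syn2 differed by 0.30 ± 0.27 at its brightest probe. Its dim ILMN_2462532, at background in Atm+/+, differed by 0.93 ± 0.27 (adjusted p = 0.0684) and passed without either Atm+/+ array (0.00815 and 0.0332). Syn3, near background at all its probes, differed by -0.26 ± 0.26 at the brightest and by -0.50 and 0.13 at the other tested ones.

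Sv2c, the SV2 form of the basal ganglia and some brainstem nuclei, read 6.81 and 7.49 on the Atm+/+ arrays and 5.36 and 5.86 on the Atm-/- arrays. The groups did not overlap, and Sv2c fell by 1.54 ± 0.33 (adjusted p = 0.0260). Atm-/- replicate 1 was at background, so the fold of 2.91 rests on a mean of which 1 of 2 arrays measured the probe. Sv2b, of cortex and hippocampus, leaned up, from 11.30 and 10.43 to 11.82 and 12.37. This difference of 1.23 ± 0.36 missed the threshold (adjusted p = 0.0694), with values of 0.00108 and 0.0460 without the Atm+/+ replicates 1 and 2. Sv2a, the form shared by nearly all synapses, differed by 0.17 ± 0.26 at ILMN_2702887 and by -0.14 ± 0.25 at ILMN_1213495. Synaptophysin (Syp), the most used marker of synaptic vesicles, read 14.08 and 14.59 against 14.52 and 14.49. These groups overlap, with a difference of 0.16 ± 0.28 (adjusted p = 0.745), which was -0.09 without Atm+/+ replicate 1. The calls of Syn1 and Sv2c were lost without Atm-/- replicate 1, at 0.130 and 0.255, and without replicate 2, at 0.0998 and 0.0953.
Syn1 promoter, chrX:20920869-20921168, minus strand: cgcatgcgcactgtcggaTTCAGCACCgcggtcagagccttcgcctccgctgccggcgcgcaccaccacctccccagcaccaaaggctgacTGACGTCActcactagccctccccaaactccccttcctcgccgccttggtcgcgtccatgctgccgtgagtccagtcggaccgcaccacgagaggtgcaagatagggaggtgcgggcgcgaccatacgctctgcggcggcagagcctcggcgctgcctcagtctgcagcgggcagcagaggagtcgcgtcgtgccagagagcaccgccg
Sv2c promoter, chr13:96132528-96132827, minus strand: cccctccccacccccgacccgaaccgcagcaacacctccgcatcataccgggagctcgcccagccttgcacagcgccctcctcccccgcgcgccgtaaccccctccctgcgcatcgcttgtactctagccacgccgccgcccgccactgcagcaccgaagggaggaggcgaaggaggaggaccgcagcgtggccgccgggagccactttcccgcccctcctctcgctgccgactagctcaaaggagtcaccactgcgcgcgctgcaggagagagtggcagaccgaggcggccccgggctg

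Genes with several tested probes show how far 1 probe can be relied on. Of 23 such genes, 7 had a probe past the threshold and another that was not. At Stx6, Stxbp5, Syt1 and Vamp8 all tested probes pointed 1 way. Those of Syn1 did so in the fit to all 4 arrays. At its ILMN_1235133, however, the groups overlapped and the sign turned without Atm+/+ replicate 1. At Syt7 and Vamp1 a probe pointed the other way, in both genes a probe with a mean of less than 6. Probes of 1 gene share their RNA and are not replicates.

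**Figure D5:**
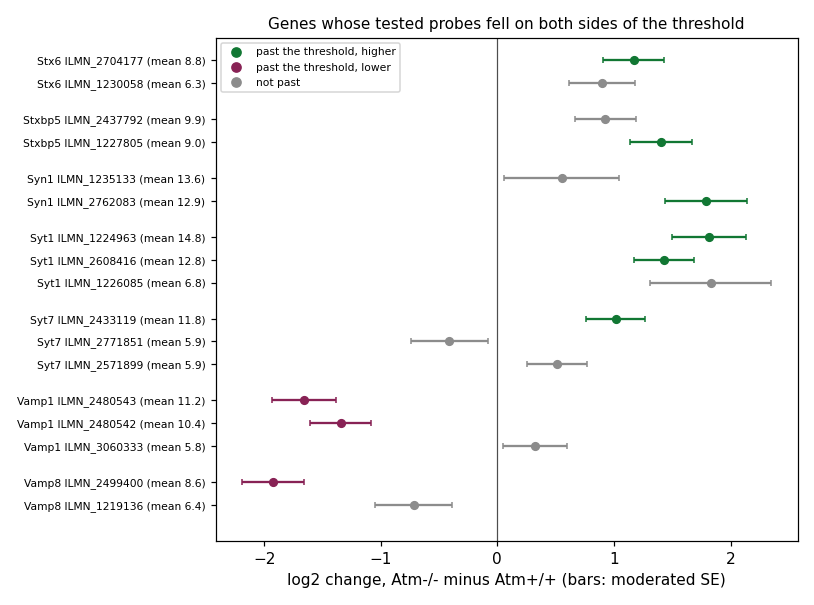
Log2 change (x axis, Atm-/- minus Atm+/+, bars are the moderated SE) of each tested probe of the 7 genes whose probes fell on both sides of the threshold, with the mean signal over the 4 arrays beside the probe name. The Vamp1 probes at -1.66 and -1.35 stand against 0.32 for the dim one, and the Syt1 probes at 1.82, 1.43 and 1.83 lie together.

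The printed start regions were searched, with those of all genes in the RefSeq table, for letters known from neuronal and activity-induced genes. The table held 63 regions for 48 of the 60 genes. The EGR motif GCGNGGGCG was found on either strand in 7 of the 63 and in 5.55% of all 32851 regions. Those 7 belonged to Cplx1, Stx2, Stxbp5, Stxbp5l, Syn2, Syt16 and Vamp4, of which Stx2, Stxbp5 and Syt16 rose. The palindromic CRE TGACGTCA stood in 2 of the 63, Stxbp3 and Syn1, and in 1.79% of all. The left arm of the RE1 silencer, TTCAGCACC, was searched after the Syn1 region had been seen. It stood in that region alone among the 63 and in 0.371% of all. None of the 3 was found in the Stx1a, Vamp1, Syt9 or Sv2c regions printed above. A match is a description of letters, and no match concerns this window only.

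Genes of the release pathway outside these families were read from lists. For fusion and priming factors, 6 of 25 tested genes rose and 1 fell, against 7.50% and 6.89% of all tested genes, with a median change of 0.22. Rab3b, a vesicle GTPase, rose by 3.12, Erc2, a scaffold of the active zone, by 1.82, and Unc13b, a Munc13 priming factor, by 1.62. Rab3d and Doc2a rose by 1.39 and 0.99, and Rimbp2 rose from background, at least 1.95-fold. Unc13c, the Munc13 form of cerebellar granule cells, fell by 2.77. With either Atm-/- array left out, the rise of Rab3b and the fall of Unc13c alone stayed. Without Atm+/+ replicate 1, 8 rose and 4 fell, and without Atm+/+ replicate 2, 10 rose and 3 fell. Nsf, which takes spent SNARE bundles apart, differed by 0.85 ± 0.25 (adjusted p = 0.0673).

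Of 20 tested vesicle proteins, transporters and endocytic genes, 1 rose and 3 fell, with a median change of -0.03, against the same shares of all genes. The vesicular glutamate transporters parted: Slc17a7, of cortical neurons, rose by 1.78 ± 0.46 (adjusted p = 0.0467), and Slc17a6, of thalamus and brainstem, fell by 2.13 ± 0.25 (adjusted p = 0.00289). The acetylcholine transporter Slc18a3 fell by 2.11, with Atm-/- replicate 1 at background (5.34). The monoamine transporter Slc18a2 fell to background on both Atm-/- arrays, at least 1.96-fold. Slc32a1, which loads GABA and glycine, differed by 0.06 ± 0.25. Without Atm-/- replicate 1 the fall of Slc17a6 alone stayed (0.0401), and without replicate 2 those of Slc17a6 (0.0290) and Slc18a3 (0.0490). Without Atm+/+ replicate 1, 3 rose and 9 fell, and without replicate 2, 4 rose and 5 fell. Slc17a6 and Slc17a7 are also among the region markers above. Among 12 other SNAREs of the secretory pathway, Vti1b, an endosomal SNARE, rose by 1.70 ± 0.29 (adjusted p = 0.0112) and 0 fell. Vti1b missed the threshold when Atm-/- replicate 1 (0.123) or replicate 2 (0.0891) was left out. Without Atm+/+ replicate 1, 2 rose and 2 fell, and without Atm+/+ replicate 2, 2 rose and 1 fell.

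Of the 60 genes, 15 had no probe bright enough to test: Cplx3, Cplx4, Snap25, Stx11, Stx16, Stx19, Stxbp3, Stxbp6, Syt2, Syt6, Syt8, Syt10, Syt14, Syt17 and Vamp5. In all, 40 of the 117 probes were not tested, with values from 4.73 to 6.36. Nothing can be said of a change in these genes.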

How the data were processed

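Brain RNA of 2 Atm+/+ and 2 Atm-/- samples had been labelled with biotin and read on Illumina bead arrays, per the labels. The deposited values are log2 signals of 45281 probes. Their software, background treatment and normalization are not stated. The arrays' ranked values lie within 0.0792 of each other, and the log base was inferred from the range. Another deposited table has 8 columns, 4 of signals before normalization and 4 of detection p-values, whose names match no sample, so they were not used.

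The background level was the mode of all values (5.054, density bandwidth 0.05 at 4096 points) plus 3 SD (0.195 each, from values under the mode), 5.64. Probes above it on at least 2 arrays, 22383, were fitted with limma 3.58.1 (lmFit, eBayes; R 4.3.3) on all 4 arrays with no covariate (2 residual and 5.22 prior degrees of freedom), and p-values were adjusted by Benjamini-Hochberg over them. The fit was tested on simulated data. A probe at background on both arrays of a genotype gives a fold of at least the other mean over 5.64. Symbols came from the platform annotation, and all 117 member probes matched the RefSeq gene table by gene identifier with 0 symbols changed. Promoters are RefSeq's (GRCm38.p6).

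Genes named were those with a probe past the threshold and a set of neuronal paralogs. Members, lists and tests were chosen with earlier results of these data known. Alternatives were other filters and background levels, an intensity trend, cyclic loess, array weights, a replicate block, the mean of a gene's probes, and leaving out each array.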

Additional observations from a re-analysis of the deposited data

How the results depend on the processing

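With no brightness filter, a filter on all 4 arrays, a background level at 2 SD, an intensity trend, cyclic loess or array weights, between 13 and 20 probes of these genes passed, within 1.5 times the 16 reported. Leaving out single arrays gave 3 to 35 for these genes and 666 to 8320 for all probes, where 2919 passed as reported. With the replicate number as a block, 26 and 4574 passed, all 16 among the 26. The numbers share only a label: deviations of same-numbered arrays correlated at 0.059 over tested probes and -0.002 over these genes' probes. No other call is read from that fit, which leaves a lone residual degree of freedom. Where an array of a genotype is left out, the remaining one is assumed to vary like the other genotype's arrays. The median change of the 45 genes was 0.19 and ran from 0.14 to 0.35 over the settings. Of the 16 calls, 2 (Stx1a and Syt16) held in every setting run, 14 were lost without an Atm-/- array, and besides that Stx2 (adjusted p of up to 0.487 over its settings), Sv2c and Syn1 were lost with no filter and Syt7 with the mean of its probes. Under the filter on all 4 arrays Stx2 and Sv2c have no value. Of the 61 probes that did not pass, 19 changed sign without some array, and of the 16 that passed 0 did. Of those 13 of the 61 that were followed through every setting, 4 changed sign. Leaving out single arrays, Snap91 ran from -0.089 to 0.37, Syn1 at ILMN_1235133 from -0.25 to 1.36, Syp from -0.093 to 0.42 and Snap23 from -0.48 to 0.0073, each with its lowest value without Atm+/+ replicate 1 and its highest without Atm+/+ replicate 2. Snap91 was -0.0011 with the mean of its probes. The cause was not tested. Signal near background limits 15 of the 60 genes.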

Other observations

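The kind of transcript a probe was designed on went with its signal. Of the 98 probes that the annotation ties to a RefSeq transcript 70 were bright enough to test, against 6 of 18 tied to a cDNA clone. Syn3 was covered by 7 probes, of which 3 were tested, and the 3 lay between 5.42 and 6.19 on all arrays. Atm lies on chromosome 9, where 2 of the 60 genes, Cplx3 and Snap91, lie as well, and 0 of these had a probe past the threshold.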
